A study of Rattus norvegicus with 6 samples.

Results

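The insulin genes Ins1 and Ins2 and the genes that turn prohormones into hormones were examined in INS-1, a cell line from a rat insulinoma that stands in for the β-cell of the pancreas. The set was defined by name as Ins1, Ins2, Pcsk1, Pcsk2, Cpe, Pcsk1n, Scg5 and Pam, and a probeset was taken for a gene where the probe-to-gene table of the array gave it exactly 1 symbol. Of the 8 genes, 7 were found, on 8 of the 25476 probesets, among 12603 genes in all. Pcsk1 is named only. Pam had 2 probesets, which were averaged, and each of the other 6 genes had 1, so that Ins1 and Ins2 were read from a single probeset each.

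All cells came from 1 clone of INS-1 in which doxycycline (Dox) turns on a GFP fusion of insulin 2 carrying C96Y, the Akita mutation. Cells were left untreated, received Dox, or received Dox and 4μ8c at 5 μM, which blocks the RNA-cleaving activity of IRE1, for 48 h. All groups were kept in medium with 11.1 mM glucose. The labels give Dox at 4 μg/ml and the study's methods give 2 μg/ml. Each of 2 independent experiments, which carry the replicate numbers 1 and 2 in the labels, contributed 1 array to each of the 3 groups, 6 arrays in all. Every cell given Dox also carried the mutant insulin gene, so that effects of Dox itself and of mutant proinsulin cannot be told apart. The study also describes cells given 4μ8c alone, and reports no changes of 1.5 fold or more in them. No such cells are among these 6 arrays. An effect of 4μ8c by itself therefore cannot be told apart here from an effect on the response to Dox.

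A β-cell makes insulin as proinsulin, which folds in the ER, travels through the Golgi and is cut within the secretory granule. The prohormone convertases PC1/3 (gene Pcsk1) and PC2 (gene Pcsk2) cut after pairs of basic residues, carboxypeptidase E (Cpe) removes those residues from the new end, and the enzyme encoded by Pam converts a C-terminal glycine of other peptide hormones to an amide. Each convertase has a protein partner. 7B2, encoded by Scg5, is needed for PC2 to mature, and proSAAS, encoded by Pcsk1n, can inhibit PC1/3. Rats carry both Ins1 and Ins2, a pair of highly similar genes. IRE1, a sensor of the unfolded protein response (UPR), splices the mRNA of the transcription factor XBP1 and can also cleave other mRNAs at the ER.

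Values were deposited as log2, relative to a reference for each probeset. The median over the 3 arrays of experiment 1 was 0 for 100% of the probesets, but that of experiment 2 for only 0.836%. In experiment 2, 48.9% of the probesets instead had equal and opposite values (within 0.0001) on a pair of arrays, against 0.0393% in experiment 1. The reference of experiment 2 is therefore a different one and is not known, and it drops out of a difference between its arrays only if it was the same for all 3. Only differences between arrays of the same experiment were therefore read, levels of different genes were not set against each other, and the labelled cell type could not be checked through the level of its markers. In experiment 1, 57.2% of the probesets had exactly the same value on at least 2 of the 3 arrays, and 25.5% on all 3, compared with 0.632% on at least 2 arrays in experiment 2. Among the 7 genes such ties occurred only for Pam. The values of Dox replicate 2 were spread more widely over all probesets (SD 0.176) than those of the other 5 arrays (SD 0.0502 to 0.118), and the 5′ to 3′ gap of its poly-A spike-ins changed more against untreated (median -0.65, where the 3 remaining treated arrays had -0.26 to 0.10). What these features of the arrays contribute to the results was not tested. A log2 change is the mean of the differences in the 2 experiments. Its standard error (SE), 95% interval and Benjamini-Hochberg adjusted p came from limma, fitted over all 12603 genes with the experiment as a term, and an adjusted p under 0.05 is called passing here.

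Among the 7 genes, only Pcsk2 passed with Dox, and it fell. Only Pcsk2 passed with Dox+4μ8c against untreated as well, again lower. With Dox+4μ8c against Dox limma called none of the 7 (0 also at an unadjusted p under 0.05). Over all genes, limma called 6.43% with Dox (4.42% higher and 2.01% lower), 2.3% with Dox+4μ8c against untreated (1.17% higher and 1.13% lower) and 1.79% with Dox+4μ8c against Dox (0.175% higher and 1.61% lower). At an unadjusted p under 0.05 the shares were 19.6%, 15.4% and 11.2% of all genes, and 2, 2 and 0 of the 7. The shares depend on which genes are counted. Without probesets tied in experiment 1, an alternative added after seeing the data, limma called 18.4%, 7.49% and 4.45% of the 6792 genes left. A single gene of 7 is too few to set against these shares. The median log2 change of the 7 genes was -0.038 with Dox and -0.040 with Dox+4μ8c, against 0.011 and -0.0018 over all genes. In bulk RNA, fewer cells that express a gene and less RNA per cell cannot be told apart.

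**Figure D1:**
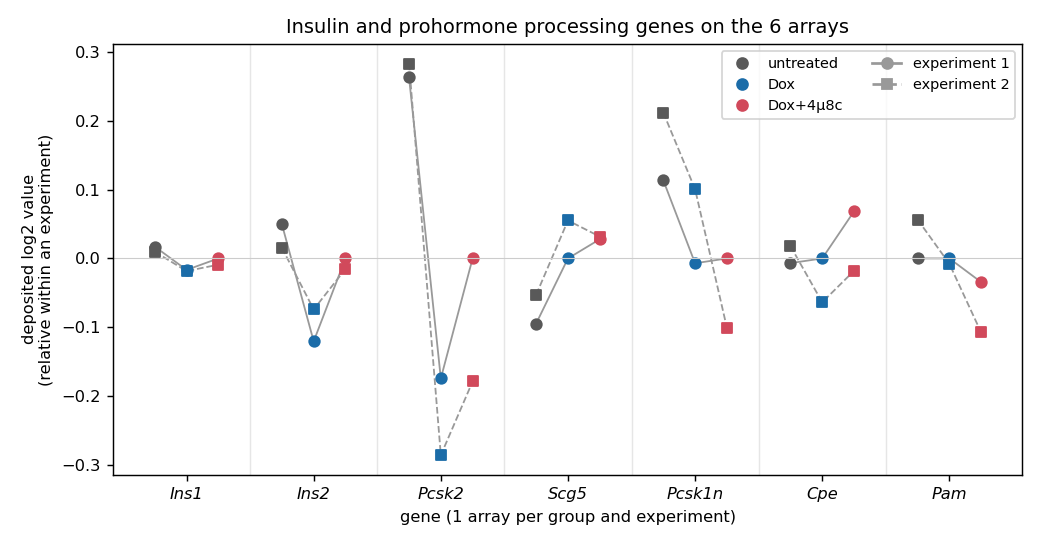
Deposited log2 value (vertical axis, relative to a reference that differs between the experiments) of each of the 7 genes (horizontal axis) on the 6 arrays, with untreated in grey, Dox in blue and Dox+4μ8c in red, and the 3 arrays of an experiment joined by a line (circles and solid lines for experiment 1, squares and dashed lines for experiment 2). For Pcsk2 both untreated arrays lay at 0.26 and 0.28 and all treated arrays at or below 0, whereas the 6 values of Ins1 lay between -0.018 and 0.017.

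Ins1 differed little between arrays. Its log2 value was 0.017 on the untreated array, -0.017 with Dox and 0 with Dox+4μ8c in experiment 1, and 0.0098, -0.018 and -0.0091 in experiment 2. Both Dox arrays were the lowest of their experiment, by differences of -0.034 and -0.028 from untreated. The mean change was -0.031 with Dox (SE 0.045, adjusted p = 0.739 by limma) and -0.018 with Dox+4μ8c (adjusted p = 0.885). The 95% interval of the first ran from -0.14 to 0.079, that is a change of -9.31% to 5.63%.

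Ins2 is the gene of which a mutant copy is induced by Dox, and its probeset was not higher with Dox. The log2 value of Ins2 was 0.050 untreated, -0.12 with Dox and 0 with Dox+4μ8c in experiment 1. In experiment 2 it was 0.015, -0.074 and -0.015. Ins2 was thus lowest with Dox and highest in untreated cells in each experiment, with differences of -0.17 and -0.089 between Dox and untreated. The mean change with Dox was -0.13 (SE 0.048), or 8.61% lower, with a 95% interval of -0.25 to -0.013. It did not pass the test over all genes (unadjusted p = 0.035, adjusted p = 0.207 by limma, and adjusted p = 0.32 when every single probeset was tested). Of all single probesets limma called 2.8% with Dox, 0.488% with Dox+4μ8c against untreated and 0.0% with Dox+4μ8c against Dox (15.6%, 12.0% and 8.63% at an unadjusted p under 0.05), and neither insulin probeset passed in any of the 3. With Dox+4μ8c the change from untreated was -0.040 (SE 0.048, adjusted p = 0.747). Dox+4μ8c was above Dox by 0.12 and 0.059 in experiments 1 and 2, a mean of 0.090 (95% interval -0.028 to 0.21, adjusted p = 0.568), which did not pass either. The array reads 1 probeset for Ins2, and the sources used here do not say whether its probes lie in the part of the mRNA that the C96Y-GFP construct contains. The value of the induced transcript therefore cannot be separated from that of the cells' own Ins2.

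Within an array the pair of insulin genes can be set against each other as changes. With Dox, Ins2 was lower than Ins1 relative to untreated by -0.14 in experiment 1 and by -0.061 in experiment 2. With Dox+4μ8c these differences were -0.033 and -0.012. All 4 were negative, and those with Dox+4μ8c were closer to 0. Within an experiment both differences use the same untreated array, so their signs are not independent. The difference between the 2 genes was not tested. Ins1 and Ins2 share most of their sequence, and how far each probeset reads the other gene is not known from the files.

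The stretches just before the start sites of Ins1 and Ins2 are shown so that the regulatory sequence of this pair of similar genes can be compared beside their values. The sequences are from RefSeq (GRCr8), 250 bases each up to the start site, at chr1:261185869-261186118 (plus strand) for Ins1 and chr1:207273806-207274055 (minus strand) for Ins2. They read 5′ to 3′, with capitals for the motifs named below.
Ins1: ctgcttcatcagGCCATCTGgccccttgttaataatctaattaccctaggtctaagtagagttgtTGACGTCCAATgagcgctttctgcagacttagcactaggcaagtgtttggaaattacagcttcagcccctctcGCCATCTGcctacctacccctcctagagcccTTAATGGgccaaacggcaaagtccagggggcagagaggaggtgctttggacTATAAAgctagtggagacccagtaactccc
Ins2: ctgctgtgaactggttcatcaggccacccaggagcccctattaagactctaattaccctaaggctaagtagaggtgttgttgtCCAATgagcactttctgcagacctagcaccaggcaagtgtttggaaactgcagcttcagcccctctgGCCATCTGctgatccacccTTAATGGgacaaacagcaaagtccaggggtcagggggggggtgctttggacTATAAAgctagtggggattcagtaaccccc
In a global alignment 205 of 238 aligned pairs of bases (86.1%) were identical. Both strands were searched for 6 motifs. TTAATGG is an A-box, read by homeodomain factors such as PDX1. GCCATCTG is an E-box, read by factors such as NEUROD1. TGACGT is the core of a cyclic AMP response element. CCAAT is read by NF-Y, and TATAAA is the TATA box. The ER stress response element, which begins with CCAAT, was the last. Only exact letters were searched, so other forms of a motif can be missed. TTAATGG was at -81 to -75 and TATAAA at -30 to -25 in both genes. GCCATCTG occurred in Ins1 at -112 to -105 and again at -238 to -231, and in Ins2 at -100 to -93. TGACGT was found in Ins1 alone of the pair, at -185 to -180, directly before CCAAT at -179 to -175, so that their capitals run together. Ins2 had CCAAT at -167 to -163. Of 33469 rat promoters of this length, 1.87% held TTAATGG, 0.998% GCCATCTG, 6.95% TGACGT and 12.9% TATAAA, while 11385 held CCAAT. The ER stress response element was in 0.0657% of them and in none of the 7 genes. A match of letters is a description of the sequence, and no binding was measured.

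Pcsk2, which encodes the convertase PC2, fell by 29.5% with Dox and fell by 22.2% with Dox+4μ8c. On the arrays of experiment 1 its log2 value was 0.26 untreated, -0.17 with Dox and 0 with Dox+4μ8c. In experiment 2 the values were 0.28, -0.29 and -0.18. Both untreated arrays were the highest of their experiment and both Dox arrays the lowest, with Dox+4μ8c in between each time. The differences between Dox and untreated were -0.44 and -0.57, with a mean of -0.50 (SE 0.061, adjusted p = 0.00751 by limma). Ranked by log2 change, Pcsk2 was the 42nd lowest of the 12603 genes. It was less than 1.5 fold lower, which corresponds to 0.585 on the log2 scale. The fall did not rest on Dox replicate 2, the array with the widest spread. Without it the change was -0.49 (adjusted p = 0.0118). With untreated replicate 2 left out, the change was -0.42 and the adjusted p 0.051, and over all genes 284 passed in place of 810.

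With Dox+4μ8c the difference of Pcsk2 from untreated was -0.26 and -0.46 in experiments 1 and 2, with a mean of -0.36 (SE 0.061, adjusted p = 0.0453 by limma). This call lay close to the threshold. It was lost without the experiment term (adjusted p = 0.118), with each array centred on its median (adjusted p = 0.0516), and when any of the untreated or Dox+4μ8c arrays was left out (replicates 1 and 2 of untreated, adjusted p = 0.0926 and 0.242, and of Dox+4μ8c, 0.218 and 0.422). Except with arrays centred, few genes passed at all in these settings. Over all genes, limma called 0 of 12603 without the experiment term (2083 at an unadjusted p under 0.05), 243 with arrays centred and 11 to 63 with one of those arrays left out, compared with 290. Its sign stayed negative in each of these. When every single probeset was tested, the adjusted p of the Pcsk2 probeset by limma was 0.117 with Dox+4μ8c against untreated and 0.0268 with Dox. In that test 0.488% and 2.8% of all single probesets passed. Dox+4μ8c was above Dox by 0.17 and 0.11, a mean of 0.14 (SE 0.061, 95% interval -0.0065 to 0.29), which did not pass the test (unadjusted p = 0.0581, adjusted p = 0.474). In percent, this interval ran from -0.451% to 22.1%.

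**Figure D2:**
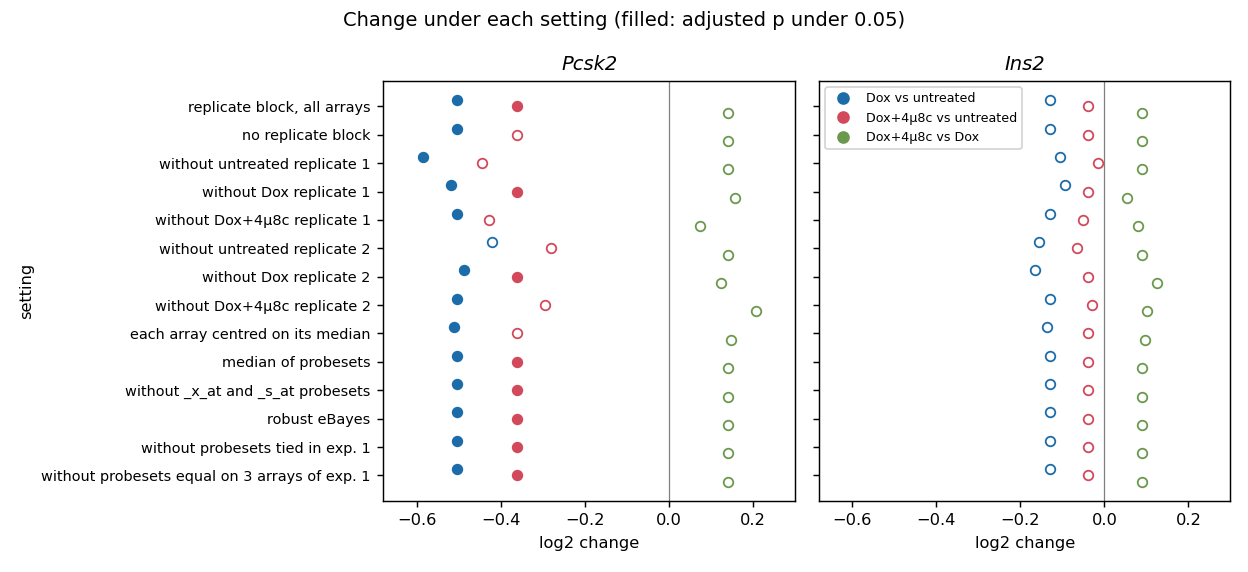
Log2 change of Pcsk2 (left) and Ins2 (right) under each setting of the analysis (vertical axis), with Dox against untreated in blue, Dox+4μ8c against untreated in red and Dox+4μ8c against Dox in green, filled where the adjusted p was under 0.05. For Pcsk2 the blue points lay between -0.59 and -0.42 and were open in 1 setting, without untreated replicate 2, while all points of Ins2 were open.

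The stretch before the start site of Pcsk2 is shown because this gene alone of the 7 passed the test. It lies at chr3:151333688-151333937 (GRCr8, plus strand, RefSeq), with capitals for the same motifs.
Pcsk2: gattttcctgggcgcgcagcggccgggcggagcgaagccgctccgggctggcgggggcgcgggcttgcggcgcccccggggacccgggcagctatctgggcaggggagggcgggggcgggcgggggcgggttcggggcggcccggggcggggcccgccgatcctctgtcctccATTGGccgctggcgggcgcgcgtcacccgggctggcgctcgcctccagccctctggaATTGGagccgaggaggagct
It was rich in G and C (79.6%, compared with 50.8% and 52.4% for Ins1 and Ins2). Of the letters searched it held only CCAAT, on the opposite strand, at -77 to -73 and at -20 to -16, and it therefore shares neither the A-box, the E-box nor the TATA box letters of the insulin genes in this window.

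Scg5, which encodes 7B2, the partner of PC2, did not follow Pcsk2. The log2 value of Scg5 was -0.095 untreated, 0 with Dox and 0.028 with Dox+4μ8c in experiment 1, and -0.053, 0.055 and 0.032 in experiment 2. The untreated array was the lowest in both experiments. The change was 0.10 with Dox (SE 0.047, 95% interval -0.012 to 0.21, adjusted p = 0.303 by limma) and 0.10 with Dox+4μ8c (adjusted p = 0.371), neither of which passed. The interval with Dox, against that of Pcsk2 (-0.65 to -0.36), does not include a fall of the size of that of Pcsk2.

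Pcsk1n, which encodes proSAAS, had its highest value in untreated cells in both experiments. Its log2 value was 0.11 untreated, -0.0070 with Dox and 0 with Dox+4μ8c in experiment 1, and 0.21, 0.10 and -0.10 in experiment 2. With Dox the differences from untreated were nearly the same, -0.12 and -0.11, with a mean of -0.12 (SE 0.065, adjusted p = 0.388 by limma). With Dox+4μ8c they were -0.11 and -0.31, with a mean of -0.21 (SE 0.065, unadjusted p = 0.0163, adjusted p = 0.182). Neither passed. The 2 experiments did not give the same sign between Dox+4μ8c and Dox, at 0.0070 and -0.20 (mean -0.097, adjusted p = 0.636).

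Cpe, which encodes carboxypeptidase E, had changes from untreated of opposite sign in the 2 experiments. In experiment 1 its log2 value was -0.0068 untreated, 0 with Dox and 0.068 with Dox+4μ8c, and in experiment 2 it was 0.018, -0.064 and -0.018. The change with Dox was 0.0068 in the first and -0.082 in the second, with a mean of -0.037 (95% interval -0.16 to 0.086, adjusted p = 0.719 by limma). With Dox+4μ8c it was 0.075 and -0.036, with a mean of 0.020 (adjusted p = 0.89). Dox+4μ8c was above Dox in both experiments, by 0.068 and 0.046, with a mean of 0.057 (95% interval -0.067 to 0.18, adjusted p = 0.717), which did not pass.

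Pam, which encodes the amidating enzyme, was lowest with Dox+4μ8c in both experiments. The mean over its 2 probesets was 0, 0 and -0.034 in experiment 1 (untreated, Dox and Dox+4μ8c) and 0.057, -0.0078 and -0.11 in experiment 2. In experiment 1 both probesets had one and the same value on the untreated and Dox arrays, so that the difference of 0 there carries little information. The change was -0.032 with Dox (adjusted p = 0.768 by limma) and -0.099 with Dox+4μ8c (SE 0.052, 95% interval -0.23 to 0.027, adjusted p = 0.447). Read singly, both probesets were lower with Dox+4μ8c than untreated, with mean changes of -0.12 and -0.083.

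**Figure D3:**
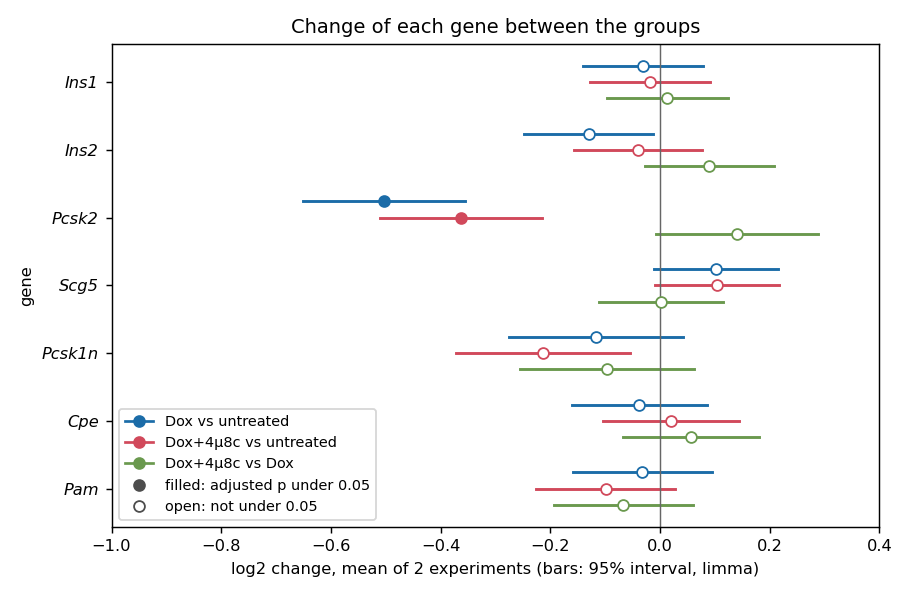
Mean log2 change over 2 experiments (horizontal axis) of the 7 genes (vertical axis) for Dox against untreated (blue), Dox+4μ8c against untreated (red) and Dox+4μ8c against Dox (green), with 95% intervals from limma as bars and filled points where the adjusted p was under 0.05. The interval of Pcsk2 ran from -0.65 to -0.36 with Dox and from -0.51 to -0.22 with Dox+4μ8c, while for Ins1, Scg5, Cpe and Pam every interval included 0.

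By their change with Dox the 7 genes were ordered, from lowest to highest, Pcsk2, Ins2, Pcsk1n, Cpe, Pam, Ins1 and Scg5. Of neighbours in this order, only Pcsk2 and Ins2 had intervals that did not overlap (-0.65 to -0.36 and -0.25 to -0.013). Among the other 6 genes the intervals overlapped, except those of Ins2 and Scg5, which lay at opposite ends (-0.25 to -0.013 and -0.012 to 0.21). The differences between genes were not tested.

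The genes with the pattern most like that of Pcsk2 were sought by the Euclidean distance over 4 log2 changes, those of Dox and of Dox+4μ8c against untreated in each experiment. The nearest of all genes were Flrt2, a cell surface protein with leucine-rich repeats, at a distance of 0.0803, Septin9, a septin of the cytoskeleton, at 0.134, and Runx1, a transcription factor, at 0.146. Flrt2 changed by -0.47 with Dox and -0.34 with Dox+4μ8c, Septin9 by -0.42 and -0.32, and Runx1 by -0.51 and -0.29. Only the 2 changes of Flrt2 both passed the test (adjusted p = 0.00634 and 0.0352), with Dox+4μ8c at adjusted p = 0.0559 for Septin9 and 0.117 for Runx1.

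Other genes of the pathway were read from 3 lists. Of 13 further processing enzymes, such as the convertase furin, carboxypeptidase D (Cpd) and the glutaminyl cyclases, none passed the test in any of the 3 comparisons (2 in each at an unadjusted p under 0.05), and their median log2 change with Dox was 0.0077. The enzyme nearest to the threshold was Pcsk6, a convertase of the constitutive pathway, which differed by 0.29 between Dox+4μ8c and Dox (0.35 and 0.24 in experiments 1 and 2, adjusted p = 0.0703), followed by the lysosomal protease gene Ctsl at 0.24 with Dox+4μ8c against untreated (adjusted p = 0.0706). Both were chosen after their values were seen. Ctsl passed when Dox replicate 1 or 2 was left out, or when probesets tied in experiment 1 were.

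Of 24 proteins of the secretory granule, 3 fell and 3 rose with Dox, that is 25.0%, against 6.43% of all genes. Their median log2 change was -0.050, and 18 of 24 were below 0. The list was chosen with earlier results of these data known, so its share beside that of all genes is a description and no test. With probesets tied in experiment 1 removed, 7 granule genes passed with Dox, while the share of all genes left was 18.4%. The granule membrane adaptor gene Sytl4 changed by -0.83 (-0.58 and -1.08 in experiments 1 and 2, adjusted p = 0.0109 by limma). Vgf, a granin-like peptide precursor, changed by -0.30 (-0.31 and -0.29, adjusted p = 0.0156), and Chgb, which encodes chromogranin B, by -0.24 (-0.23 and -0.25, adjusted p = 0.0334). The 3 that rose were Nucb2, the precursor of nesfatin-1, at 0.44 (adjusted p = 0.00926), Hid1, a Golgi protein needed for granule maturation, at 0.33 (adjusted p = 0.042), and Cadps2, a priming factor of granule release, at 0.30 (adjusted p = 0.0445), the last named after its value was seen. The 6 became 3 without the experiment term, without Dox replicate 2 or without either Dox+4μ8c array, 1 without untreated replicate 1 and 2 without untreated replicate 2. In these settings the genes called among all 12603 also numbered fewer, 239 to 621 in place of 810.

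With Dox+4μ8c none of the 24 granule genes passed against untreated (6 at an unadjusted p under 0.05), with Sytl4 at -0.50 (adjusted p = 0.092), Vgf at -0.18 and Chgb at -0.086. Against Dox, 2 of the 24 were lower, against 1.61% of all genes, and none was higher. They were Hid1, which differed by -0.49 (-0.39 and -0.59, adjusted p = 0.0281 by limma), and Nucb2, by -0.47 (-0.41 and -0.52, adjusted p = 0.021). With Dox+4μ8c, Nucb2 and Hid1 lay at -0.027 and -0.16 against untreated and did not pass. Of all single probesets 0.0% passed between Dox+4μ8c and Dox, so those of Nucb2 and Hid1 did not. Neither difference from Dox passed without Dox+4μ8c replicate 1 or without replicate 2, and that of Hid1 also without the experiment term, where Nucb2 still passed. With either Dox+4μ8c array left out, limma called 0 of 12603 genes in this comparison (1432 and 595 at an unadjusted p under 0.05), and the differences were -0.59 and -0.38 for Hid1 and -0.53 and -0.40 for Nucb2. Without Dox replicate 1, 4 of the 24 passed, and 905 of all genes in place of 225.

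Of 15 other peptide hormones and their precursors, 3 fell and 1 rose with Dox, against 2.01% lower and 4.42% higher among all genes. This list too was chosen with earlier results of these data known, so these counts beside the shares are no test of it. With probesets tied in experiment 1 removed, 4 hormones passed with Dox, higher or lower, beside 18.4% of all genes left. Glucagon (Gcg), a product of PC2 in the α-cell, changed with Dox by -2.03 and -2.41 on the log2 scale in experiments 1 and 2 and differed by 0.65 and 1.07 between Dox+4μ8c and Dox (mean changes -2.22 and 0.86, adjusted p = 0.000721 and 0.021 by limma). Iapp, which encodes islet amyloid polypeptide and is stored and processed with insulin, changed by -0.25 with Dox (-0.21 and -0.28, adjusted p = 0.0408 by limma) and was at -0.23 with Dox+4μ8c (adjusted p = 0.0835). Gast, the gastrin gene, changed by -0.26 (-0.24 and -0.27, adjusted p = 0.0425). Tac1, which encodes substance P, rose by 0.44 with Dox (adjusted p = 0.00551) and by 0.43 with Dox+4μ8c (adjusted p = 0.015). Gcg and Tac1 were the 2 of 15 that passed with Dox+4μ8c against untreated (2.3% of all genes), and Gcg was the 1 that passed against Dox (1.79% of all genes). Of all single probesets 0.0% passed between Dox+4μ8c and Dox, so that of Gcg did not. The median of the list with Dox was 0.0040. Without the experiment term the 4, 2 and 1 called hormones became 0, 0 and 0 (unadjusted p under 0.05 for 7, 4 and 0). Of the 4 with Dox, 2 were left without untreated replicate 1, Dox replicate 2 or either Dox+4μ8c array, and 1 without untreated replicate 2. The 2 became 1 without either untreated array or Dox+4μ8c replicate 2 and 0 without Dox+4μ8c replicate 1, and the 1 became 0 without either Dox+4μ8c array and 2 without Dox replicate 1. The calls among all 12603 genes moved the same way in each of these settings, from 225 to 0 without either Dox+4μ8c array and to 905 without Dox replicate 1 for Dox+4μ8c against Dox.

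Markers of islet and other cell types could be read only as changes. Of 8 β-cell markers, which include Ins1, Ins2 and Iapp, 7 were matched, and 2 of them fell with Dox, Iapp and Mafa, against 2.01% lower among all genes. With probesets tied in experiment 1 removed, 456 of 6792 genes were lower with Dox. Mafa, a transcription factor that activates insulin genes, changed by -0.56 with Dox (adjusted p = 0.009 by limma). It was at 0.057 with Dox+4μ8c against untreated (adjusted p = 0.756) and differed by 0.62 between Dox+4μ8c and Dox (adjusted p = 0.0189). Mafa was read from 1 probeset. When every single probeset was tested, 0 of 25424 passed between Dox+4μ8c and Dox. The change of Mafa was not followed through the alternatives. Among those that did not pass, Pdx1 was at -0.093 with Dox (adjusted p = 0.492) and Slc2a2, the glucose transporter GLUT2, at -0.17 (adjusted p = 0.113). Nkx6-1, a β-cell transcription factor, was at 0.090 with Dox (adjusted p = 0.4) and 0.28 with Dox+4μ8c (adjusted p = 0.0593). Of 5 α-cell markers 3 were matched, and beside Gcg neither Irx1 (0.029 with Dox) nor Irx2 (0.15) passed. None of the 4 matched markers of PP, acinar and fibroblast cells passed in any comparison, with changes between -0.12 and 0.15. The part of cell makeup in the values of the 7 genes was not tested.

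**Figure D4:**
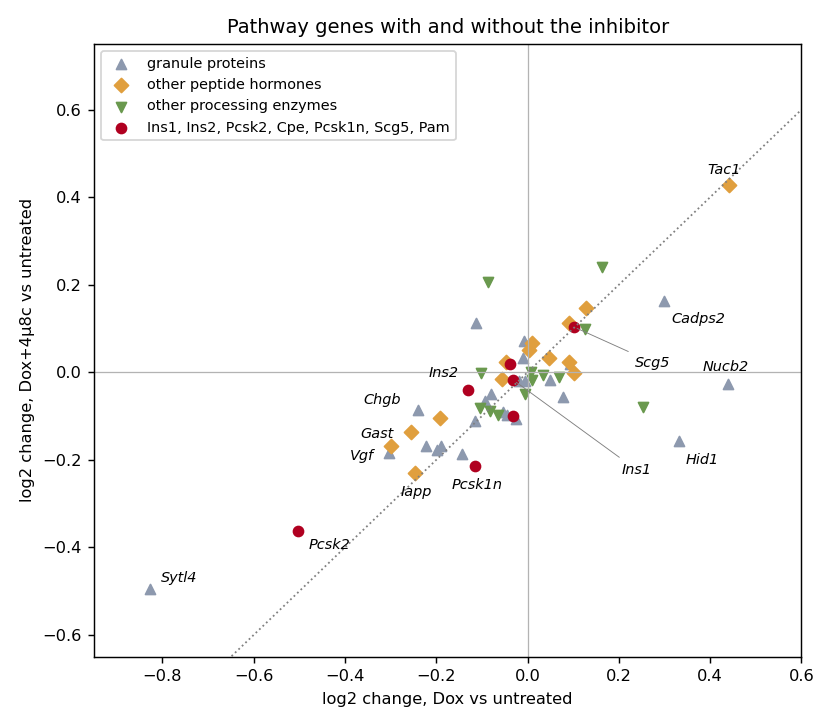
Log2 change with Dox (horizontal axis) and with Dox+4μ8c (vertical axis), both against the same untreated arrays, of the 7 genes (red circles) and of the granule proteins (grey triangles), other peptide hormones (orange diamonds) and other processing enzymes (green triangles), with the dotted line marking equal changes and Gcg left out for its size. Pcsk2 lies at -0.50 and -0.36, while Nucb2 and Hid1 lie at 0.44 and 0.33 with Dox but at -0.027 and -0.16 with Dox+4μ8c.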

How the data were processed

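mRNA of 6 samples was hybridized to Affymetrix rat 3′ IVT arrays. The authors summarized the arrays with RMA, per the labels and without a version, and deposited log2 values. They are relative to a reference that differs between the replicate numbers, and the software, that reference and the rule by which probesets were kept are not given in the sources used here. Signal levels, signal over background and depth are therefore unknown, and precision is limited by how many arrays there are. Of 25476 probesets, 17978 had 1 symbol, 378 several, 7068 none, and 52 were controls. Values were averaged per symbol (12603 genes, no filter). The test was limma's (version 3.58.1, R 4.3.3, lmFit, eBayes, two-sided, 3 groups and the experiment as a term, 2 residual and 4.25 prior degrees of freedom, Benjamini-Hochberg over all genes). The study's methods name no test for the arrays. The replicate number was taken as the experiment because the reference of the values differs with it and the study describes independent experiments. Over genes, same-numbered arrays of different groups had deviations from the group mean with r of 0.033, 0.10 and 0.031, which says little where values are relative within an experiment.

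The 8 genes and the 3 pathway lists were chosen with earlier results of these data known. Of listed genes that passed, the 4 with the smallest p per list and comparison were named, and for members that passed the 3 genes nearest in pattern. Cadps2, Pcsk6, Ctsl and the markers fall outside this rule and were named after their values were seen. Marker lists of 6 cell types were read too, of which the δ-cell list had no matched gene. The pathway lists held 14, 25 and 21 genes, of which 13, 24 and 15 were matched. The procedure was tested on simulated data for Dox against untreated, with 12603 genes in all. There limma called 88.1% of genes changed 1.25 fold, 100% of those changed 1.5 fold, and 9 unchanged genes. The simulated noise of a gene was independent and of equal spread on every array. It held neither the ties of experiment 1 nor the wider spread of Dox replicate 2, so these shares need not hold for the real arrays. Tables and figures used Python (version 3.11.15) with pandas 2.3.3, numpy 2.4.6 and matplotlib 3.10.9, and alignments with biopython 1.88 (match 2, mismatch -1, gap opening -4, extension -0.5). The alternatives were no replicate block, each array left out, arrays centred on their median, the median of probesets, no _x_at or _s_at probesets, robust eBayes and, added after seeing the data, removal of probesets tied in experiment 1. A filter on dim probesets could not be made.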

Additional observations from a re-analysis of the deposited data

How the results depend on the processing

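Among the 13 alternatives, the change of Pcsk2 with Dox kept its sign in all and passed in 12, and that with Dox+4μ8c passed in 7. Tested as a single probeset, which is not among the 13, Pcsk2 passed with Dox but not with Dox+4μ8c. Ins1 and Ins2 kept the sign of their changes and passed in none of the 13. Read as single probesets, 0 passed in the 8 alternatives run that way (no block, each of 6 arrays left out, arrays centred). Without the replicate block, 0 of the 7 genes passed with Dox+4μ8c against untreated, as did 0 of all 12603, 3 granule genes passed with Dox and 1 with Dox+4μ8c against Dox, and 0 other hormones passed in any comparison. With each array centred on its median, 0 of the 7 genes passed with Dox+4μ8c against untreated. Without probesets tied in experiment 1, an alternative added after seeing the data, 1 other processing enzyme passed in that comparison. With 1 array left out, the number of the 7 genes that passed was 0 to 1 with Dox and 0 to 1 with Dox+4μ8c against untreated, and that of other processing enzymes 0 to 1 in the latter. Granule genes numbered 1 to 6 with Dox, 0 to 1 with Dox+4μ8c against untreated and 0 to 4 against Dox, and other hormones 1 to 5, 0 to 3 and 0 to 2. Changes that had not passed turned sign in 7 cases. With 1 array left out, Cpe with Dox ran from -0.088 to 0.013 (without untreated replicate 2), and Cpe with Dox+4μ8c from -0.030 to 0.070, with -0.030 and -0.014 without untreated replicate 1 and without Dox+4μ8c replicate 1. Between Dox+4μ8c and Dox, Pcsk1n ran from -0.20 to 0.0047 (without Dox+4μ8c replicate 2), and Scg5 from -0.020 to 0.025, with -0.014 and -0.020 without replicate 1 of Dox and of Dox+4μ8c. Pam with Dox ran from -0.081 to 0.016 (without untreated replicate 2). The cause was not tested. A group reduced to 1 array was assumed to vary like the others.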
